A study of Mus musculus with 4 samples.

Results

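The synaptonemal complex genes described here are *Sycp1*, *Sycp2*, *Sycp3*, *Syce1*, *Syce2*, *Syce3* and *Tex12*. They were chosen by name rather than by their values, with earlier results of these data already known. They make up 7 of the 24411 genes listed for each library. RNA was sequenced from GFP-positive male germ cells that were sorted from mouse testes at postnatal day 18. The 2 control libraries came from *Zfp541*+/- testes and the other 2 from testes labelled *Zfp541* KO, in which a CRISPR/Cas9 deletion spans most exons of the gene. All 4 testes carried *Rec8-3xFLAG-HA-p2A-GFP*, a knocked-in allele that makes GFP together with the meiotic cohesin REC8, so the cells were gated on an allele of a gene of the chromosome axis. By the series' own account 1 control testis was heterozygous and 1 homozygous for the knock-in, without saying which control library is which, and both testes labelled *Zfp541* KO were homozygous. The strain is labelled as mixed C57BL/6 and CBA, and the study's methods name C57BL/6. Levels are given as TPM, a transcript abundance that is corrected for transcript length and has an equal sum in every library, which leaves sequencing depth unknown.

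The synaptonemal complex is the protein zipper that joins paired homologous chromosomes in meiotic prophase. Its lateral elements, built from SYCP2 and SYCP3, lie along the cohesin axis of each homologue, the transverse filament protein SYCP1 spans the gap between them, and the central element proteins SYCE1, SYCE2, SYCE3 and TEX12 hold the filaments together in the middle. In spermatocytes the axes form in leptotene, the zipper closes through zygotene, is complete in pachytene and comes apart in diplotene.

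The targeted gene was checked first. *Zfp541* had 112 TPM in control 1 and 72.2 TPM in control 2, against 136 TPM for KO-labelled library 1 and 151 TPM for KO-labelled library 2. Its transcript level did not fall with the label, so within these libraries the genotype rests on the label alone, as does every direction below. The paper reports by immunoblot that ZFP541 protein was missing from knockout testis extracts, which were not these libraries. Each value covers the whole gene, deleted and remaining exons together. *Rec8*, whose allele drives the GFP of the sort, was at 7.05 TPM in control 1, 27.9 TPM in control 2, and 27.7 and 19.4 TPM in the KO-labelled libraries. Control 1 was thus the lowest, and the groups overlapped. Control 1 also carried the largest summed level of 5 Leydig cell markers, 2873 TPM against 18.0 TPM in control 2 and 324 and 491 TPM in the KO-labelled libraries. The 3 macrophage markers summed to 416 TPM in control 1 and 4.26 TPM in control 2, and to 374 and 277 TPM in the KO-labelled libraries. The controls therefore differed from each other in the RNA of other cell types, and the main counts below are also given without each of them. In bulk RNA, fewer cells of a type and less RNA per cell cannot be told apart.

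The genes lie on 7 different chromosomes of GRCm38 and differ widely in size. *Sycp2* (chr2:178345293-178407685, minus strand) has 44 exons in its longest coding transcript and codes for 1500 residues. *Sycp1* (chr3:102818499-102936100, minus strand) has 33 exons and 993 residues. *Sycp3* (chr10:88459569-88473236, plus strand) has 9 exons and 254 residues. The central element genes are shorter. *Syce1* (chr7:140777229-140787852, minus strand) codes for 329 residues, *Syce2* (chr8:84872111-84888221, plus strand) for 177, *Tex12* (chr9:50556819-50561325, minus strand) for 123 and *Syce3* (chr15:89390174-89410503, minus strand), with 3 exons, for 88.

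Parts of these genes share sequence with other transcripts, which may bear on their values. The windows below are from GENCODE transcripts, whereas the paper names a UCSC mm10 annotation. The effect on the TPM was not tested. *Sycp3* lies inside the span of *Chpt1*, a phospholipid synthesis gene on the opposite strand, and 514 of 1338 windows of 75 bases in the annotated *Sycp3* transcripts (38.4%) are also found, on either strand, in annotated *Chpt1* transcripts. The sources used here do not say whether reads were assigned by strand, and without it reads from the shared stretch cannot be told apart. *Chpt1* itself was at 58.2 and 54.9 TPM in the control pair against 58.8 and 67.3 TPM in the KO-labelled libraries, far below *Sycp3* in each. In *Sycp1*, 95 of 3624 windows (2.62%) recur in other transcripts, among them its pseudogene *Sycp1-ps1*, which was at 3.62 and 4.14 TPM in the control pair and no higher than 5.0 TPM in any library. No window of *Sycp2*, *Syce1*, *Syce2*, *Syce3* or *Tex12* recurred in another gene, although *Tex12* lies within the span of *Il18* and the end of *Syce2* within that of *Gcdh*, both on the opposite strand. *Chpt1*, *Sycp1-ps1*, *Il18* and *Gcdh* were taken up after their values could be seen.

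The promoters are shown as a description, and no link between their letters and the levels given below was tested. RefSeq (GRCm38.p6) holds a promoter for all 7 genes, and of the 2 held for *Syce2* and for *Syce3* the one nearest to the start of the gene model was used. The 120 bases before the start site are printed 5′ to 3′ on the strand of the gene for the 4 genes that were higher in both KO-labelled libraries, with motif matches in capitals. These are the E-box CACGTG, the SP-family motif GGGCGG, whose letters on the other strand are CCGCCC, and in *Tex12* the first 7 bases of a match to the STRA8 motif CNCCTCAG read on the other strand, which ends 1 base into the transcript.
Sycp3 (chr10:88459467-88459586): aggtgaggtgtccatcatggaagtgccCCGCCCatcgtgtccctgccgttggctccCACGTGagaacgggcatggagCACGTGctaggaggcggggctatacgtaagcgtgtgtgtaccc
Sycp1 (chr3:102936101-102936220): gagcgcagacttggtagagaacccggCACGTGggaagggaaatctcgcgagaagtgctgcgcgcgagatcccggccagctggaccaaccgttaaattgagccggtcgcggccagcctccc
Tex12 (chr9:50561269-50561388): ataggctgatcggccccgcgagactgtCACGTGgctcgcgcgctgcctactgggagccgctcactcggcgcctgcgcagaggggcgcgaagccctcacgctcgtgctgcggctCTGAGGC
Sycp2 (chr2:178407659-178407778): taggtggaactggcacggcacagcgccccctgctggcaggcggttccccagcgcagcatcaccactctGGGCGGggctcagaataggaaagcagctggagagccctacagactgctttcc

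In the whole promoter window, from 250 bases before to 50 after the start, the E-box was present in 3 of the 7 genes, *Sycp3*, *Sycp1* and *Tex12*, and in 7.15% of all 32851 promoters. *Sycp3* held it at 2 places. The STRA8 motif was found in *Sycp1* and *Tex12* and in 7.94% of all promoters, and the E2F motif GCGGGAA in *Sycp3* and *Tex12* and in 4.6% of all. The SP-family motif occurred in *Sycp2*, *Sycp3* and *Syce2* and in 35.7% of all promoters, and CCAAT in *Sycp3* alone of the 7 and in 37.4% of all. The cyclic AMP response element TGACGTCA was in none of the 7 and in 1.79% of all. *Syce1* and *Syce3* held none of these letters. The number of CpG dinucleotides in the window was 26 in *Tex12*, 21 in *Sycp1*, 19 in *Syce2*, 15 in *Sycp3*, 14 in *Syce1*, 10 in *Sycp2* and 5 in *Syce3*, against a median of 7 over all promoters. A match describes letters and not binding, and the shares over all promoters were not matched for CpG number.

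Both lateral element genes were higher in the 2 KO-labelled libraries than in either control. *Sycp3*, which codes for a main structural protein of the axis, was at 1108 and 1263 TPM in controls 1 and 2 against 2093 and 2196 TPM in the KO-labelled libraries 1 and 2. The group means were 1186 ± 109 TPM and 2145 ± 72.7 TPM (SD, n = 2 each), a ratio of 1.81. By rank among all listed genes, *Sycp3* stood at 86 and 103 in the control pair against 21 and 12 in the KO-labelled libraries. Its log2 difference came to 0.86, with a standard error of 0.29 (limma adjusted p = 0.327). *Sycp2*, whose protein links SYCP3 to the axis, was at 431 and 301 TPM in the control pair against 556 and 647 TPM in the KO-labelled libraries. Here control 1 was the higher control, the opposite of *Sycp3*. For *Sycp2* the log2 difference was 0.73, with a standard error of 0.27 (limma adjusted p = 0.347).

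The transverse filament gene followed the same order. *Sycp1* was at 449 and 626 TPM in the control pair against 895 and 1005 TPM in the KO-labelled libraries, with means of 537 ± 125 and 950 ± 77.8 TPM (SD, n = 2 each). The groups did not overlap, and the ratio of the means was 1.77. Limma gave a log2 difference of 0.84 with a standard error of 0.28 (adjusted p = 0.324).

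The 4 central element genes divided. *Tex12*, whose protein forms fibres with SYCE2, was at 184 and 304 TPM in the control pair against 336 and 380 TPM in the KO-labelled libraries. The gap between control 2 and the nearer of these was small beside the gap between the controls, and the log2 difference was 0.60, with a standard error of 0.31 (limma adjusted p = 0.432). *Syce2* was at 164 TPM in control 1 and 459 TPM in control 2, and both KO-labelled libraries lay between them, at 347 and 275 TPM. *Syce3*, whose small protein joins the SYCP1 filaments to the central element, was likewise at 223 and 627 TPM in the controls and between them at 325 and 354 TPM. The controls of *Syce2* and *Syce3* thus differed by 2.81-fold each, more than any group difference among the 7 genes. *Syce1*, whose protein binds the central ends of SYCP1 filaments with SYCE3, ran the other way between the controls, at 436 and 296 TPM, with 296 and 318 TPM in the KO-labelled libraries. Its lowest KO-labelled library and control 2 were level. The log2 differences were 0.17 for *Syce2* (standard error 0.55), -0.14 for *Syce3* (standard error 0.54) and -0.23 for *Syce1* (standard error 0.26), with adjusted p from limma of 0.902, 0.921 and 0.704.

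**Figure D1:**
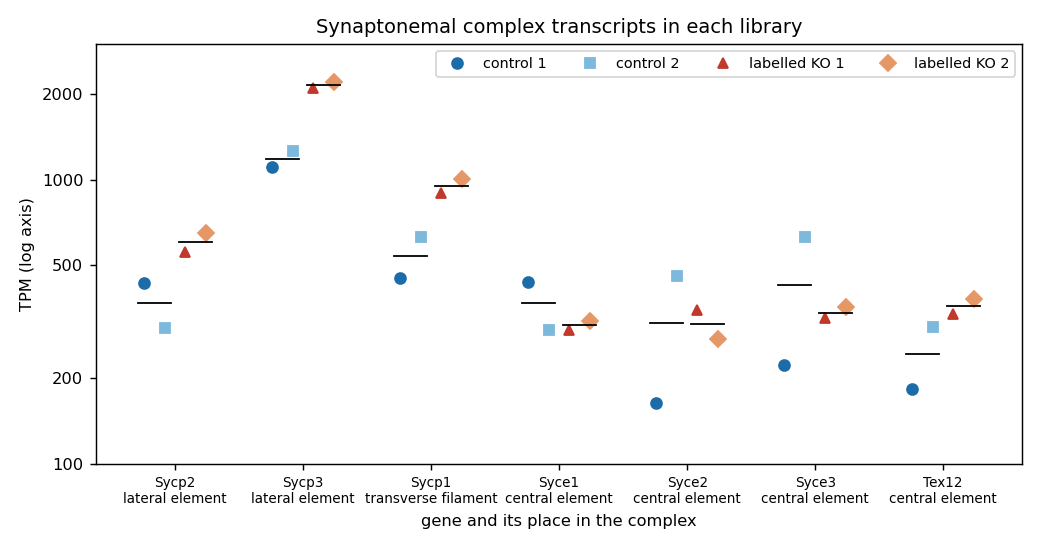
TPM of each synaptonemal complex gene in the 4 libraries on a log axis, with a point per library and a black line at each group's mean (n = 2). *Sycp2*, *Sycp3*, *Sycp1* and *Tex12* show both KO-labelled libraries above both controls, whereas for *Syce2* and *Syce3* they lie between controls that are 2.81-fold apart.

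None of the 7 genes passed an FDR of 0.05 in limma. Neither did any other of the 14512 genes whose mean over the libraries reached 1 TPM (0.0%), among which the smallest adjusted p was 0.310. All 7 genes passed that filter. At an unadjusted p under 0.05, 2 of the 7, *Sycp1* and *Sycp3*, were higher, where 10.7% of all genes tested were. At that level 1549 genes were higher and 542 lower with the TPM as deposited, 605 and 1097 after median-ratio scaling, and 1010 and 1009 after quantile normalization. With 2 libraries against 2 an exact two-sided permutation test cannot give a p under 0.333. The 4 libraries came from 1 testis each, and the p-values measure the spread between them.

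With no test, both KO-labelled libraries lay above both controls for 4 of the 7 genes and below both for 0 of 7. The same was true of 38.6% and 12.1% of all genes tested. Against that share, 4 of 7 sets the synaptonemal complex genes apart by no test. The median log2 difference of the 7 genes was 0.60, beside 0.28 over all genes tested. Relative to that shift of all genes, the differences were 0.57 for *Sycp3*, 0.55 for *Sycp1*, 0.45 for *Sycp2* and 0.31 for *Tex12*, and -0.11, -0.42 and -0.51 for *Syce2*, *Syce3* and *Syce1*. After median-ratio scaling, which took the median over all genes to -0.01, *Sycp2* and *Sycp3* still lay above both controls (2 of 7, 22.6% of all genes tested) and *Syce1* lay below both (1 of 7, 22.8%). *Sycp1* and *Tex12* then overlapped with the controls.

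These values depended on the control. Against control 1, the 7 genes were higher than the mass of genes, with a median log2 difference of 0.87 for the KO-labelled library 1 and 0.74 for KO 2, where all genes tested had medians of 0.17 and 0.13. Against control 2, the members' medians were 0.15 and 0.32 and those of all genes 0.45 and 0.43, so that the order was turned. *Sycp3* stood above the all-gene median in each of the 4 pairs of libraries, at 0.92 and 0.99 against control 1 and 0.73 and 0.80 against control 2. *Sycp1* did too, at 0.99 and 1.16 against control 1 and 0.52 and 0.68 against control 2. So did *Sycp2*, at 0.37 and 0.58 against control 1 and, the larger here, 0.88 and 1.10 against control 2. *Tex12* was at 0.87 and 1.05 against control 1 but at 0.15 and 0.32 against control 2, below the median of all genes. *Syce2* and *Syce3* changed sign with the control, from 1.08 and 0.74 to -0.40 and -0.74 for *Syce2*, and from 0.54 and 0.67 to -0.94 and -0.82 for *Syce3*.

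Without control 1, both KO-labelled libraries were above the remaining control for 5 of the 7 genes (65.8% of all genes tested) and below it for 2, *Syce2* and *Syce3* (25.0%). The 5 include *Syce1*, which was level at 296 TPM in control 2 and in KO-labelled library 1. Without control 2 the counts were 6 (52.9%) and 1, *Syce1* (36.0%). These fits with 3 libraries assume that the lone control varies like the KO-labelled libraries, which lay close together. They called 4 of the 7 genes at an FDR of 0.05 without control 1 (48.1% of all genes tested) and 6 of 7 without control 2 (28.4%), and *Syce3* was called lower in the former, at -0.88, and higher in the latter, at 0.61.

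**Figure D2:**
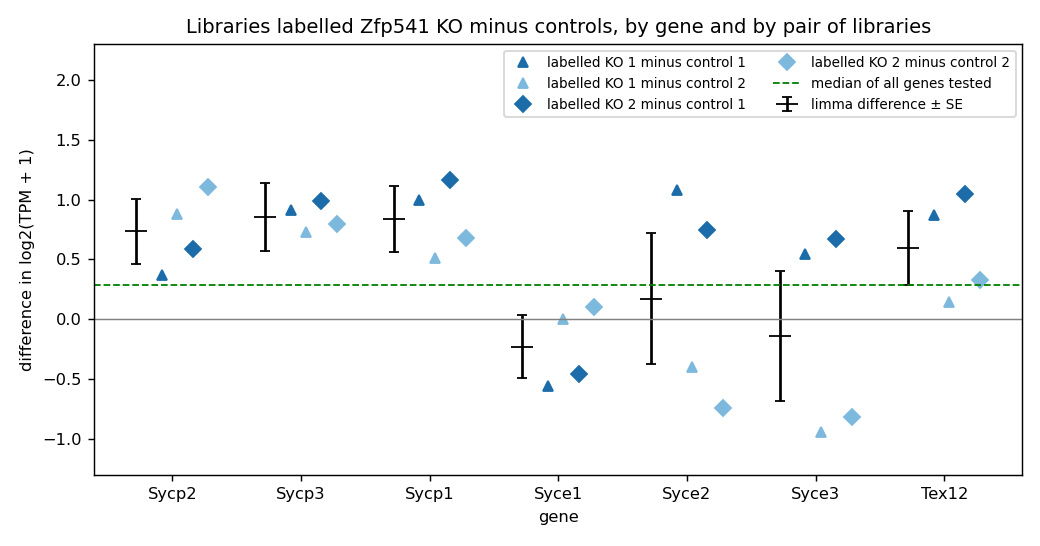
Difference in log2(TPM + 1), KO-labelled libraries minus controls, for each gene. Black bars give the limma estimate with its standard error, coloured points the 4 pairs of libraries, and the dashed line the median of 0.28 over all genes tested. *Sycp2*, *Sycp3* and *Sycp1* lie above that line in every pair, and *Syce2* and *Syce3* fall on either side of 0 with the control used.

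Since TPM is per length, levels can be set side by side within a library. *Sycp3* was the most abundant of the 7 in 4 of 4 libraries, and its lowest value, 1108 TPM, exceeded the highest of any other member, 1005 TPM. Below it, the order in the KO-labelled libraries was *Sycp1*, then *Sycp2* at 556 and 647 TPM, each separated from the next by more than the range of its 2 values. The 4 central element genes followed between 275 and 380 TPM, and neighbours among them overlapped. In the controls the order was not stable. *Syce1*, at 436 TPM, was behind only *Sycp3* and *Sycp1* in control 1, and was the lowest of the 7 in control 2. *Syce3* was level with *Sycp1* in control 2, at 627 and 626 TPM.

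The share that each gene took of the summed TPM of the 7 does not depend on how whole libraries are scaled. That sum was 2995 and 3876 TPM in the control pair against 4850 and 5176 TPM in the KO-labelled libraries. *Sycp3* held 37.0% and 32.6% of it in the control pair against 43.2% and 42.4% in the KO-labelled libraries. The share of *Sycp1* was 15.0% and 16.1% in the control pair against 18.5% and 19.4% in the KO-labelled libraries. Both shares were thus higher without overlap of the groups. *Syce1* was below both controls in share, with 6.11% and 6.14% against 14.6% and 7.65%. So was *Syce3*, with 6.71% and 6.85% against 7.44% and 16.2%. The shares of *Sycp2*, *Syce2* and *Tex12* overlapped between the groups. Taken as log2 ratios to the mean of the 7 genes, *Sycp3*, *Sycp1* and *Tex12* were above both controls and *Syce1* and *Syce3* below both, 3 and 2 of 7, where 11.5% and 24.8% of all genes tested were above and below when scaled in the same way. These shares were not tested. Shares of a sum offset each other, so a larger *Sycp3* share lowers the others. The log2 ratios of the 7 genes are centred on their own mean, unlike those of other genes. On the log2 ratio scale *Tex12* and *Syce3* separated narrowly, *Tex12* at -0.67 in control 2 against -0.65 in KO-labelled library 1 and *Syce3* at -0.64 in control 1 against -0.65 in KO-labelled library 2, and *Sycp1* by more, at 0.37 in control 2 against 0.75 in KO-labelled library 1.

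**Figure D3:**
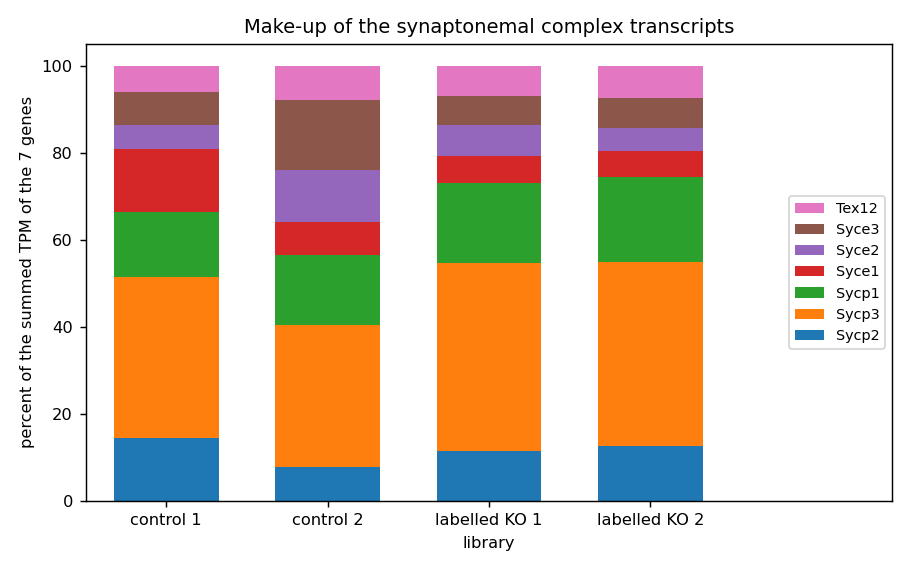
Percent of the summed TPM of the 7 genes held by each gene, where the bars of a library add up to the whole. *Sycp3* takes 43.2% and 42.4% in the KO-labelled libraries against 37.0% and 32.6% in the controls, and the 2 KO-labelled libraries resemble each other more than the 2 controls do.

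Ratios between pairs of genes show how far members kept step in these 4 libraries. Of 21 pairs, 4 stayed within 1.5-fold over the 4 libraries, and 9 separated the groups without overlap. Both were true of *Sycp1* over *Tex12* and of *Syce2* over *Syce3*. These counts were not taken over other gene pairs for comparison. The steadiest of the 21 was *Sycp3* over *Sycp1*, at 2.47 and 2.02 in the control pair against 2.34 and 2.19 in the KO-labelled libraries. The ratio of *Sycp1* to *Tex12* lay between 2.06 and 2.66, and that of *Syce2* to *Syce3* was 0.73 in both controls and 1.07 and 0.77 in the KO-labelled libraries. At the other end, *Syce1* over *Syce3* ranged 4.14-fold, almost all of it between the controls, at 1.96 and 0.47. The ratio of *Sycp2* to *Syce1*, named here after its values were seen, was 0.99 and 1.02 in the control pair against 1.88 and 2.04 in the KO-labelled libraries, a larger step between the groups than within either of them.

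As whole profiles over the 4 libraries, measured by the distance between centred log2(TPM + 1) values, *Sycp1* and *Sycp3* were each other's nearest member. Only 99 of the genes tested lay nearer to *Sycp1* than *Sycp3* did, 0.682% of them, and 244 lay nearer to *Sycp3* than *Sycp1* did, 1.68%. *Syce2* and *Syce3* were also each other's nearest, with 424 and 377 genes nearer. *Syce1* had no close member: its nearest was *Sycp2*, and 7670 genes, 52.9%, were nearer to it than that. The 3 genes nearest to the mean profile of the 7 were *Nudc*, *Rrp12* and *Camkk2*, with distances of 0.02, 0.03 and 0.04 log2 units. *Nudc*, the nearest, was at 524, 715, 784 and 834 TPM in control 1, control 2 and the KO-labelled libraries 1 and 2. These likenesses rest on 4 libraries, and much of each profile is the difference between the controls.

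Of 25 genes listed for the axis, synapsis, crossovers and removal of the complex, 22 were found in the files and tested. None passed the FDR (0 of 22). At an unadjusted p under 0.05, 7 were higher and 1 was lower, beside 10.7% and 3.73% of all genes tested, and without overlap of the groups 11 were higher and 2 lower, beside 38.6% and 12.1%. The median log2 difference of the 22 was 0.54, against 0.28 over all genes tested. After median-ratio scaling 5 of the 22 were above both controls and 3 below, beside 22.6% and 22.8% of all genes. Without control 1 the counts were 13 and 6 (65.8% and 25.0% of all genes), and without control 2 they were 18 and 4 (52.9% and 36.0%). *Sycp2l*, *Shoc1* and *Rnf212* were not analysed here.

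Among the 5 cohesin subunits of the axis, 3 lay above both controls, beside 38.6% of all genes tested, and 2 of 5 after median-ratio scaling, beside 22.6%. *Smc1b*, the meiosis-specific SMC1, was at 232 and 165 TPM in the control pair against 455 and 459 TPM in the KO-labelled libraries (log2 difference 1.22, standard error 0.25, adjusted p = 0.310 from limma). *Smc3*, its partner, was at 65.2 and 56.2 TPM and at 125 and 105 TPM (log2 difference 0.91). *Stag3*, the meiotic STAG subunit, was at 288 and 284 TPM and at 354 and 333 TPM, a log2 difference of 0.26 that was below the shift of all genes and became -0.07 after median-ratio scaling and -0.14 when libraries were scaled by the 7 genes. *Rec8* and *Rad21l* overlapped between the groups. The group called HORMA here holds *Hormad1*, *Hormad2* and *Trip13*, whose protein acts on the other 2. All 3 genes were above both controls, beside 38.6% of all genes tested. After median-ratio scaling 1 of 3 was, beside 22.6%, and the 3 differences were still positive. Among them was *Hormad1*, whose protein marks unsynapsed axes, at 531 and 728 TPM and at 1145 and 1232 TPM. The ratio of *Hormad1* to *Sycp1* stayed between 1.16 and 1.28 in all 4 libraries, closer than any pair of the 7 genes. *Hormad2* was at 64.3 and 113 TPM and at 145 and 159 TPM, and *Trip13*, for the ATPase that removes both proteins from synapsed axes, at 29.5 and 45.2 TPM and at 52.0 and 47.6 TPM.

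The central element partner SIX6OS1, listed under its older name *4930447C04Rik*, was at 111 and 190 TPM in the control pair against 256 and 292 TPM in the KO-labelled libraries (log2 difference 0.91, standard error 0.32, adjusted p = 0.335 from limma). Its ratio to *Sycp1* was 0.25 and 0.30 in the controls and 0.29 in both KO-labelled libraries, whereas its ratio to *Syce1*, whose protein it binds, was 0.25 and 0.64 in the controls and 0.87 and 0.92 in the KO-labelled libraries. *Syce1l*, a paralogue of *Syce1*, was the 1 gene of these lists that was lower at an unadjusted p under 0.05. Its level was 56.2 and 19.7 TPM in the control pair against 7.68 and 7.34 TPM in the KO-labelled libraries (log2 difference -2.01, standard error 0.57, adjusted p = 0.315 from limma).

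Of the 6 synapsis and crossover genes, 4 were above both controls, beside 38.6% of all genes tested, and 2 of 6 after median-ratio scaling, beside 22.6%. *Hfm1*, a helicase needed for crossovers, was at 113 and 89.7 TPM and at 200.4 and 220 TPM (log2 difference 1.06). *Msh4* and *Msh5*, which form a clamp at crossover sites, had log2 differences of 0.81 and 0.82, and *Ccnb1ip1*, a ligase that limits crossover sites, 0.51. *Tex11* and *Fkbp6* overlapped between the groups. Of the 6 genes of complex removal and of the division that follows it, 0 were above both controls and 1 was below, beside 38.6% and 12.1% of all genes tested, and 0 and 2 after median-ratio scaling, beside 22.6% and 22.8%. *Ccna1*, the cyclin of late spermatocytes, was at 48.2 and 4.83 TPM in the control pair against 2.20 and 1.80 TPM in the KO-labelled libraries, so its difference lay mainly in control 1. The other 5, *Hspa2*, *Cdk1*, *Ccnb1*, *Plk1* and *Aurkb*, overlapped between the groups, with log2 differences between -0.05 and 0.13, all of them negative after median-ratio scaling.

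**Figure D4:**
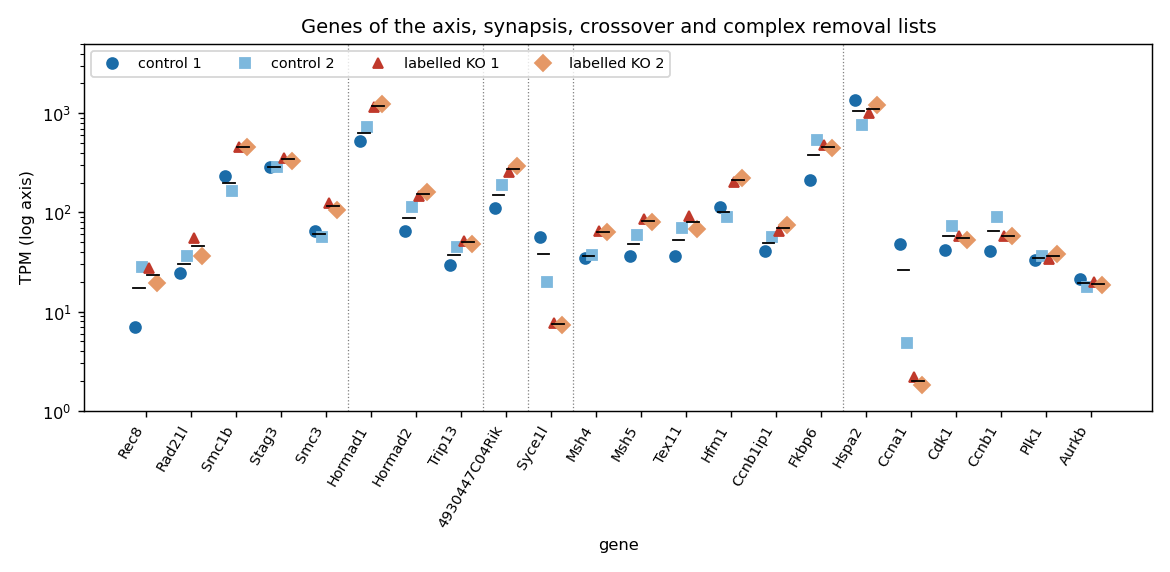
TPM on a log axis for the 22 listed genes of the axis, the HORMA group, the SIX6OS1 gene, *Syce1l*, crossovers and complex removal, in that order between dotted lines, with a point per library and a line at each group's mean (n = 2). The cohesin genes *Smc1b* and *Smc3*, then *Hormad1*, *Hormad2* and *Trip13*, and *Msh4*, *Msh5* and *Hfm1* lie above both controls. So do *Stag3*, *4930447C04Rik* and *Ccnb1ip1*, and *Syce1l* and *Ccna1* lie below both.

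Markers of germ cell stages differed between the groups along with the synaptonemal complex genes, and their part in these results was not tested. The 8 leptotene and zygotene markers summed to 422 and 681 TPM in the control pair against 1043 and 842 TPM in the KO-labelled libraries. Of them 6 of 8 (*Meiob*, *Prdm9*, *Dmc1*, *Mei1*, *Mei4* and *Tex15*) were above both controls, and *Stra8* and *Spo11* overlapped, where 38.6% of all genes tested were above both and 12.1% below. After median-ratio scaling 4 of 8 were above both controls and 1 below (22.6% and 22.8% of all genes). Without control 1, 6 of 8 were above the remaining control, a share near the 65.8% of all genes, and without control 2, 7 of 8, beside 52.9%. The 6 pachytene markers summed to 4587 and 2128 TPM in the control pair against 1091 and 1698 TPM in the KO-labelled libraries. Most of each sum was *Ldhc*, at 3659 and 1819 TPM against 768 and 1230 TPM, so the sum mainly reports that gene. Of the 6 markers, *Ldhc*, *Pgk2* and *Pou5f2* (3 of 6) were below both controls, beside 12.1% of all genes tested. *Mybl1* was above both, and *Piwil1* and *Hist1h1t* overlapped. After median-ratio scaling 4 of 6 were below, beside 22.8%. Without control 1, 3 of 6 were below the remaining control (25.0% of all genes), and without control 2, 5 of 6 (36.0%). *Pgk2*, a glycolytic enzyme of late spermatocytes, was at 79.0 and 18.4 TPM and at 1.59 and 2.71 TPM. *Hist1h1t*, the testis linker histone, was at no more than 2.55 TPM in any library. The paper reports H1t-positive pachytene spermatocytes among the sorted cells, so this low transcript level does not show that they were absent.

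Of the spermatid markers, *Prm1*, *Prm2*, *Tnp1* and *Acrv1* were at or near 0. *Prm1* was listed at 0 in 3 libraries and at 1.48 TPM in control 1, and the 6 summed to 17.5 and 13.9 TPM in the control pair against 28.7 TPM in each KO-labelled library. *Spaca1*, an acrosome membrane gene, was at 7.34 and 13.9 TPM in the control pair against 27.0 and 26.6 TPM in the KO-labelled libraries, above both controls, and *Tnp2* was at 7.59 TPM in control 1 and at 0.75 TPM or less elsewhere. The 7 spermatogonial markers summed to 255 and 791 TPM in the control pair against 457 and 382 TPM in the KO-labelled libraries. The high sum of control 2 was mostly *Uchl1*, at 559 TPM there. *Uchl1*, *Sohlh1*, *Dmrt1* and *Nanos3* were higher in control 2 than in control 1, and *Kit*, *Zbtb16* and *Gfra1* were lower. The 5 Sertoli cell markers summed to 114 and 199.7 TPM and to 221 and 173 TPM, and the 2 myoid markers to between 3.10 and 10.9 TPM. Above both controls were 2 of 7 spermatogonial markers, *Zbtb16* and *Nanos3*, and 2 of 5 Sertoli cell markers, *Sox9* and *Wt1*. In both lists 0 were below both, beside 38.6% and 12.1% of all genes tested. After median-ratio scaling 1 spermatogonial and 0 Sertoli cell markers were above both, beside 22.6%. No gene of the Leydig cell and macrophage lists separated the groups (0 of 5 and 0 of 3), where 38.6% of all genes tested were above both controls and 12.1% below. The controls were so far apart in these lists that this overlap says little about the groups. Red blood cell markers summed to 62.1 and 17.1 TPM in the control pair against 25.8 and 22.4 TPM in the KO-labelled libraries, and *Hba-a1* and *Hbb-bs* were each at 0 in at least 1 library. The label of male germ cells in meiotic prophase was met by the meiotic markers, in libraries that also held other cell types.

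**Figure D5:**
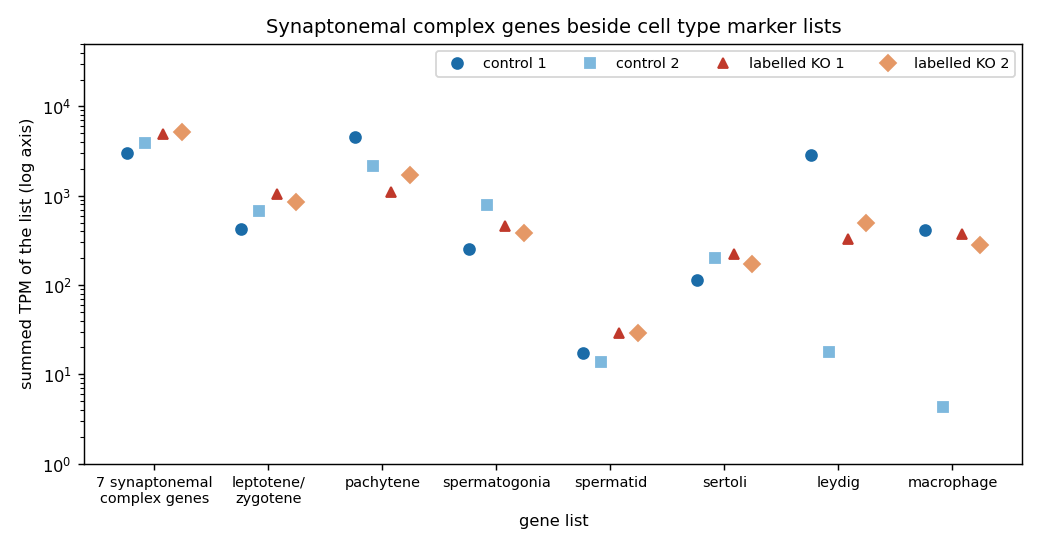
Summed TPM on a log axis of the 7 synaptonemal complex genes and of 7 marker lists in each library. The sum of the leptotene and zygotene markers is highest and that of the pachytene markers, mostly *Ldhc*, lowest in the KO-labelled libraries. The Leydig cell and macrophage sums fall to 18.0 and 4.26 TPM in control 2.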

How the data were processed

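The authors trimmed single-end reads with Trim Galore 0.5.0 (cutadapt 1.16), aligned them to mm10 with STAR 2.6.0a and estimated expression with RSEM 1.3.1, per the submitters' processing notes, and deposited TPM per gene with no counts. Depth, and so counting error, is unknown. Samples were grouped by label, 2 against 2. Per the methods, the authors compared groups with RSEM on TPM, a step not rerun here.

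The 14512 genes whose mean reached 1 TPM were fitted as log2(TPM + 1) by genotype in limma 3.58.1 (R 4.3.3), with a trend of variance on mean and adjustment by Benjamini-Hochberg over all genes at an FDR of 0.05, two-sided. Differences are on that scale, which understates changes of low genes. The procedure was tested on simulated data. Named were the 7 members, listed genes whose groups did not overlap, the targeted and sort genes, and the 3 nearest profiles. Other names were chosen after values were seen. Members and lists were chosen with earlier results of these data known. Gene models are GENCODE on GRCm38 (mm10), promoters RefSeq. Transcript lengths were found for 95.9% of genes tested. Pseudocount, filter, scaling, variance trend, replicate block, length and left-out libraries were varied. Shared replicate numbers do not come from stated pairs.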

Additional observations from a re-analysis of the deposited data

How the results depend on the processing

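*Sycp2*, *Sycp3*, *Sycp1* and *Tex12* kept a positive log2 difference under all 16 alternatives, between 0.33 and 0.99, 0.45 and 1.23, 0.43 and 1.08, and 0.19 and 1.02. Changes of filter, variance trend or replicate block leave these estimates unchanged by construction, so those settings are no check of direction. The median difference of the 7 genes, 0.60, was 0.26 after median-ratio scaling, 0.70 after quantile normalization, 0.19 when libraries were scaled by the 7 genes and 0.47 after length correction. The median over all genes moved from 0.28 to -0.01, 0.08 and -0.08 under these scalings. Genes above both controls numbered 2 after median-ratio scaling. Genes below both numbered 1 after median-ratio scaling and 2 when scaled by the 7 genes. *Syce2* turned to -0.17 and -0.23 under these 2 settings, and length correction turned *Syce1* to 0.067 and *Syce3* to 0.37. The causes were not tested. With each library left out, genes past the FDR ranged from 0 to 6, those above the controls from 4 to 6, those below from 0 to 2, and the median from 0.24 to 0.91. The differences ranged from 0.48 to 0.99 for *Sycp2*, 0.76 to 0.95 for *Sycp3*, 0.60 to 1.08 for *Sycp1*, -0.51 to 0.050 for *Syce1*, -0.57 to 0.91 for *Syce2*, -0.88 to 0.61 for *Syce3* and 0.24 to 0.96 for *Tex12*. Calls arose only when a control was left out, 4 without control 1 and 6 without control 2. With replicate number as a block, 0 of the 7 genes and 0 of all genes passed the FDR. The median was 0.60 (0.47 with the length correction), values that a balanced block cannot move. Deviations of same-numbered libraries correlated at -0.16, and with crossed numbers as the block, added after seeing the data, 7 genes were higher and 80 lower, none of the 7 among them. The unknown depth gives no counting interval, and 2 libraries a group limit precision.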
